A study of Caenorhabditis elegans with 45 samples.

Results

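The genes *nep-22*, *asp-8* and *F44E7.5* were described in whole worms of 5 *C. elegans* strains, as 3 of the 18589 genes in the deposited table of normalized counts. They were chosen by name because each had been seen, in these same libraries, to lie above the empty vector control under one RNAi treatment and below it under the other. The treatment values below therefore describe the choice, and no test of them is given. That opposition held unevenly: all 3 genes had opposite signs under the 2 treatments in each strain, but 3 of the 30 differences from the control were below 2 standard errors, namely *nep-22* under *par-1* RNAi and *asp-8* under *pos-1* RNAi in N2, and *F44E7.5* under *pos-1* RNAi in QX1211.

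RNA was measured in 45 libraries, with 3 biological replicates in each of 15 groups, that is, 5 strains in 3 treatments. The strains were N2, the laboratory reference that responds to RNAi, and the wild isolates JU1088, EG4348, CB4856 and QX1211. By the study's account, JU1088 is highly competent for germline RNAi, EG4348 is moderately competent, and CB4856 and QX1211 are largely incompetent.

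All groups were hermaphrodites fed HT115 *E. coli* from the first larval stage and collected as day 1 adults when egg laying began. The empty vector control bacteria carried pL4440 alone. The *par-1* RNAi and *pos-1* RNAi bacteria carried pL4440 with a fragment of the named gene and made double-stranded RNA of it. Treatment took place at 20 °C in every group, and QX1211 had been kept at 18 °C before that, whereas the other strains had been kept at 20 °C. Worms of a strain and treatment were raised on 6 plates that were divided into 3 replicates of 2 plates each, so the spread between replicates covers plates and libraries.

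Neprilysins are zinc metallopeptidases that cleave short peptides, most of them outside the cell, and the worm genome holds a large family of them. Aspartyl proteases of the cathepsin D and pepsin type degrade proteins at acid pH, and several of those in *C. elegans* are made in the intestine. The targeted genes act in the germline and the early embryo: *par-1* encodes a polarity kinase, and *pos-1* encodes a zinc finger protein that binds maternal messenger RNA.

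*nep-22* (WBGene00020788), a member of the neprilysin family, lies on chromosome X from 9034554 to 9038547 on the plus strand of WBcel235 and has 12 exons. *asp-8* (WBGene00019105), a member of the aspartyl protease family, lies on chromosome V from 3024549 to 3027931 on the plus strand and has 4 exons. No other annotated gene overlaps either of them. *F44E7.5* (WBGene00018427), which codes for a protein, occupies the minus strand of chromosome V between 5778817 and 5780922, and the 2 of its transcripts that the annotation used here holds have 5 exons each. It overlaps 3 noncoding RNA genes on the plus strand, F44E7.13, F44E7.14 and F44E7.15, and the microRNA gene cel-mir-253 on its own strand. Libraries were directional and the authors quantified reads by strand, but reads shared with the microRNA locus cannot be told apart from those of *F44E7.5*.

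Libraries held 4269033 to 17865356 assigned reads, with a median of 7478891. No gene of the set was near the detection limit, as the lowest library held 27 estimated reads of *nep-22*, 48 of *asp-8* and 249 of *F44E7.5*. Per transcript length, the median level was 10.7 TPM for *nep-22*, 15.8 TPM for *asp-8* and 86.1 TPM for *F44E7.5*. Those medians stood at percentiles 60.7, 65.4 and 89.6 of 18576 genes, so *F44E7.5* was the most abundant of the set.

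The targeted genes were checked first. Normalized counts of *pos-1*, which are the deposited counts after division by size factors and correction for transcript length, were 795 to 1077 in the 3 N2 libraries under *pos-1* RNAi against 5539.9 to 5777 on empty vector. They were 415 to 632 against 6236 to 6425 in JU1088 and 2482 to 3248 against 6335 to 6621 in EG4348. *pos-1* RNA thus fell in these strains, with log2 fold changes of -2.57 in N2, -3.59 in JU1088 and -1.23 in EG4348 (edgeR adjusted *P* = 3.48e-19, 1.97e-23 and 8.58e-10). Of all genes, 0.118%, 2.94% and 0.0431% were called lower in those comparisons, at an adjusted *P* under 0.1 with a change of more than 1.5-fold. In CB4856 and QX1211 the log2 fold change was -0.05 and -0.13 (edgeR adjusted *P* = 1 and 0.971). *par-1* RNA under *par-1* RNAi had log2 fold changes from -0.18 to 0.24 and did not pass the test in any strain. These fits thus give the *par-1* RNAi label no check in its target's RNA. The study, by contrast, describes a knockdown of *par-1* that resembled that of *pos-1* but was weaker.

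*nep-22* had its highest libraries under *par-1* RNAi and its lowest under *pos-1* RNAi in every strain. Over all strains, normalized counts ran from 118.7 to 339 with a median of 190.4 on empty vector (15 libraries), from 261 to 486 with a median of 351 under *par-1* RNAi, and from 33.2 to 126 with a median of 72.9 under *pos-1* RNAi. The *pos-1* RNAi libraries of different strains overlapped the controls only at the very edge, where the highest (126, in N2) lay above the lowest control (118.7, in CB4856).

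In N2, *nep-22* had 262, 331 and 294 normalized counts in the 3 controls, 411, 372 and 336 under *par-1* RNAi and 95.2, 126 and 64.5 under *pos-1* RNAi. JU1088 had 257, 339 and 296 on empty vector, 486, 428 and 441 under *par-1* RNAi and 89.2, 54.9 and 58.6 under *pos-1* RNAi. The libraries of these 2 strains formed 3 separate ranges, although the highest N2 control (331) lay close to the lowest N2 library under *par-1* RNAi (336). The EG4348 controls held 190.4, 220.2 and 149 normalized counts of *nep-22*, the *par-1* RNAi libraries 354, 341 and 443 and the *pos-1* RNAi libraries 105, 92.6 and 89.9. In CB4856 the values were 176, 118.7 and 146, then 351, 326 and 310.0 under *par-1* RNAi and 72.9, 33.2 and 60.9 under *pos-1* RNAi. QX1211 had 149, 143 and 168 on empty vector, 273, 291 and 261 under *par-1* RNAi and 76.7, 72.7 and 64.5 under *pos-1* RNAi. In these strains too, each treatment had a range of its own, and the *par-1* RNAi libraries stood well clear of the controls.

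**Figure D1:**
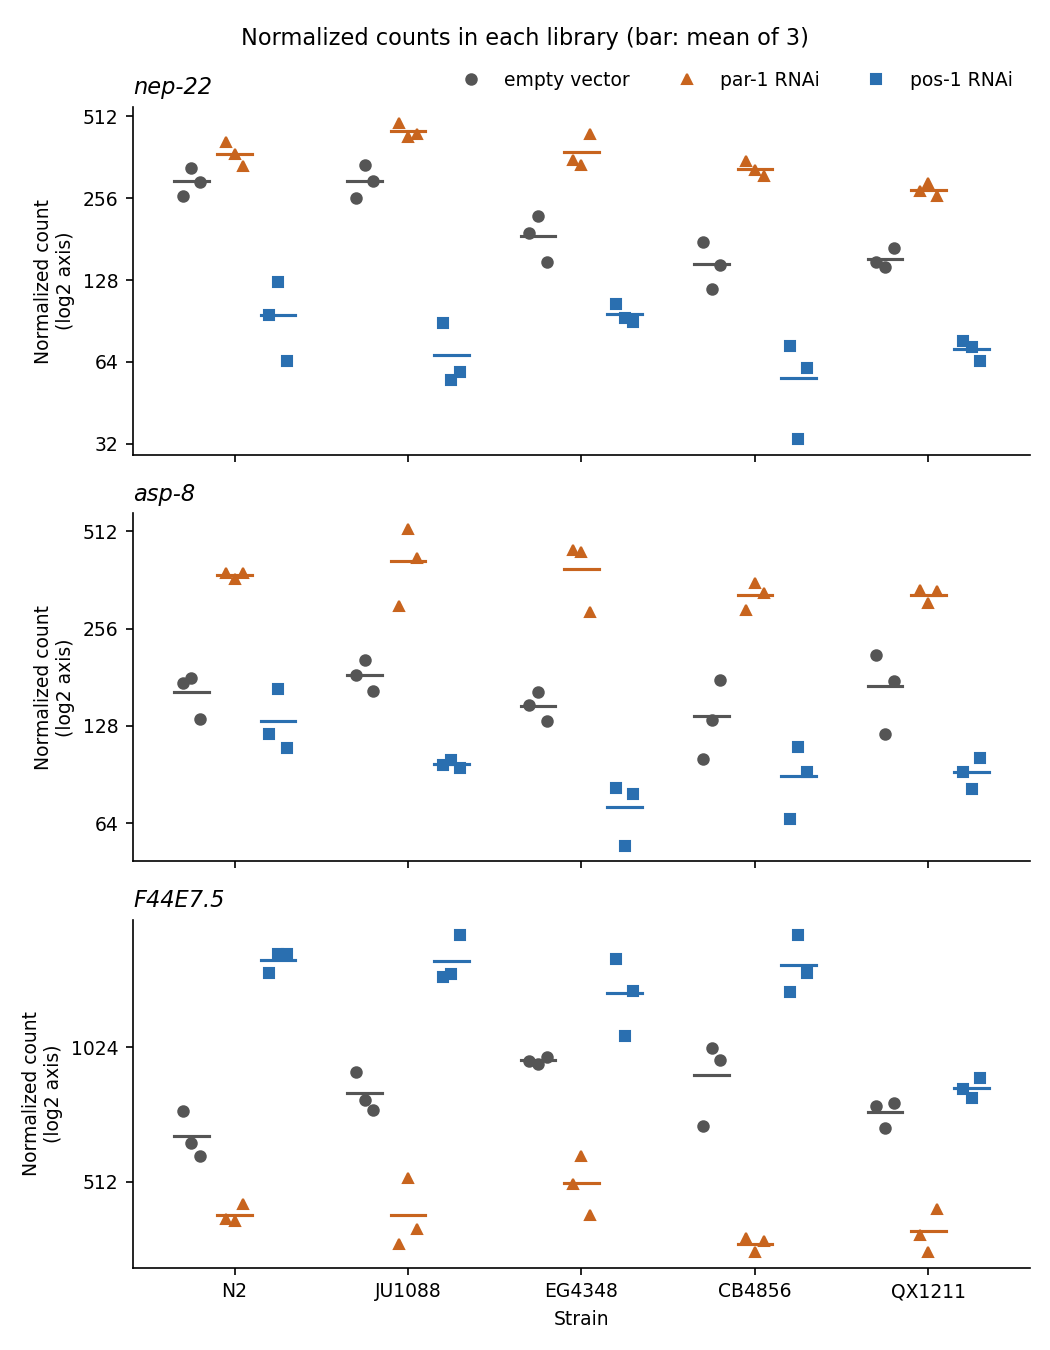
Normalized counts (log2 axis) of *nep-22*, *asp-8* and *F44E7.5* in each of the 45 libraries by strain, with circles for empty vector, triangles for *par-1* RNAi, squares for *pos-1* RNAi and a bar at the mean of 3. *nep-22* and *F44E7.5* show 3 separate ranges in each strain in opposite order, and *asp-8* under *pos-1* RNAi overlaps the controls in N2 and CB4856.

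The order of *nep-22*, with all *pos-1* RNAi libraries below all controls and all controls below all *par-1* RNAi libraries, held in 5 of 5 strains. Of the 18589 genes, 0.00538% had that order in 5 strains, which is *nep-22* alone, and 2.35% had it in at least 1 strain. Under *par-1* RNAi alone, 0.715% of genes lay above the controls in all 5 strains, and under *pos-1* RNAi alone, 0.0915% lay below them in all 5. These shares are given beside a gene that was chosen for this pattern, and nothing is read from them.

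The fitted log2 fold change of *nep-22* under *par-1* RNAi was 1.17 ± 0.19 (SE) in CB4856, 1.00 ± 0.19 in EG4348, 0.82 ± 0.19 in QX1211, 0.60 ± 0.19 in JU1088 and 0.33 ± 0.18 in N2. Under *pos-1* RNAi it was -2.15 ± 0.20 in JU1088, -1.62 ± 0.20 in N2, -1.33 ± 0.20 in CB4856, -1.10 ± 0.21 in QX1211 and -0.97 ± 0.20 in EG4348. The *par-1* RNAi difference was smallest in N2, where it was below 2 standard errors, and largest in CB4856. The *pos-1* RNAi difference was largest in JU1088, a 4.44-fold lower level. Between the treatments, *nep-22* was 3.78-fold to 6.75-fold higher under *par-1* RNAi.

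*asp-8* was higher under *par-1* RNAi than on empty vector in every strain, by 1.86-fold to 2.64-fold, and its *pos-1* RNAi means were lower than control by 1.23-fold to 2.04-fold. The *pos-1* RNAi margin was the smaller of the 2 in 4 strains, and in QX1211 it was about the same size as that of *par-1* RNAi (1.90-fold and 1.86-fold). Normalized counts ran from 101 to 212 with a median of 164 on empty vector, from 289 to 520.0 with a median of 355 under *par-1* RNAi, and from 54.5 to 166 with a median of 94.6 under *pos-1* RNAi. Over all strains the *par-1* RNAi libraries stayed above every control, whereas the *pos-1* RNAi and control libraries shared much of their range.

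N2 had 174, 180.4 and 134 normalized counts of *asp-8* on empty vector, 380.2, 364 and 381 under *par-1* RNAi and 121, 166 and 109.6 under *pos-1* RNAi. CB4856 had 101, 133 and 178 in the controls, 291, 355 and 329 under *par-1* RNAi and 65.9, 110.2 and 92.3 under *pos-1* RNAi. Here the *pos-1* RNAi and control libraries overlapped, with 1 of the 3 *pos-1* RNAi libraries above the lowest control in each of these strains. The JU1088 controls held 184, 204 and 164 normalized counts, against 301, 520.0 and 423 under *par-1* RNAi and 96.7, 100.3 and 94.6 under *pos-1* RNAi. Those of EG4348 held 148, 163 and 132, against 447, 440.3 and 289 under *par-1* RNAi and 82.4, 54.5 and 78.9 under *pos-1* RNAi. Those of QX1211 held 212, 121 and 176, against 336, 307 and 335 under *par-1* RNAi and 92.1, 81.8 and 101 under *pos-1* RNAi. In these 3 strains each treatment had a separate range, although the QX1211 controls spread from 121 to 212.

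The full order was thus present in 3 of 5 strains for *asp-8*, against 0.0269% of all genes with the order in at least 3 strains, and its upper side, *par-1* RNAi above the controls, was present in 5 of 5 strains (0.715% of genes). The lower side, *pos-1* RNAi below the controls, was present in 3 strains, as it was in at least 3 strains for 0.732% of genes. *asp-8* was chosen in the same way as *nep-22*, and nothing is read from these shares. The log2 fold change under *par-1* RNAi was 1.40 ± 0.21 (SE) in EG4348, 1.24 ± 0.21 in CB4856, 1.20 ± 0.21 in N2, 1.18 ± 0.21 in JU1088 and 0.89 ± 0.21 in QX1211. Under *pos-1* RNAi it was -1.03 ± 0.22 in EG4348, -0.92 ± 0.22 in QX1211, -0.89 ± 0.22 in JU1088, -0.63 ± 0.22 in CB4856 and -0.30 ± 0.21 in N2. The N2 value under *pos-1* RNAi was below 2 standard errors, so in N2 the contrast between the treatments lay mainly on the *par-1* RNAi side. The QX1211 value was -0.69 without control replicate 1, the highest of the 3, and -1.11 without control replicate 2, the lowest.

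*F44E7.5* had the opposite order, with its lowest libraries under *par-1* RNAi and its highest under *pos-1* RNAi. Normalized counts ran from 584 to 1021 with a median of 769 on empty vector, from 357 to 585 with a median of 418 under *par-1* RNAi, and from 788 to 1818 with a median of 1487 under *pos-1* RNAi. The function of its product is not given in the files used here. The *par-1* RNAi range touched that of the controls only across strains, since the highest value (585, in EG4348) lay just above the lowest control (584, in N2), whereas the *pos-1* RNAi libraries of QX1211 lay within the control range of the other strains.

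On empty vector N2 had 735, 627 and 584 normalized counts of *F44E7.5*, with 424, 418 and 457 under *par-1* RNAi and 1499, 1651 and 1651 under *pos-1* RNAi. JU1088 had 899.7, 781 and 742 in the controls, 372, 523 and 402 under *par-1* RNAi and 1469, 1487 and 1817 under *pos-1* RNAi. CB4856 had 681, 1021 and 959 on empty vector, 384, 357 and 378 under *par-1* RNAi and 1358, 1818 and 1502 under *pos-1* RNAi. In these strains the *pos-1* RNAi libraries were 1.76-fold to 2.47-fold above the controls and none of the ranges overlapped. EG4348 had 954, 941 and 974 normalized counts on empty vector, 506, 585 and 433 under *par-1* RNAi and 1606, 1083 and 1364 under *pos-1* RNAi. QX1211 had 755, 674 and 769 normalized counts in the controls, 390.0, 357 and 445 under *par-1* RNAi and 826, 788 and 872 under *pos-1* RNAi. The ranges were still separate, but the *pos-1* RNAi libraries of QX1211 lay only just above the controls.

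That order held in 5 of 5 strains, and 0.00538% of all genes, which is *F44E7.5* alone, had it in 5 strains, against 1.79% in at least 1 strain. Genes below the controls under *par-1* RNAi in all 5 strains made up 0.624% of the table, and genes above them under *pos-1* RNAi in all 5 made up 0.0161%. *F44E7.5* too was chosen for this pattern, and nothing is read from these shares. The log2 fold change under *par-1* RNAi was -1.25 ± 0.14 (SE) in CB4856, -0.91 ± 0.14 in EG4348, -0.91 ± 0.14 in QX1211, -0.89 ± 0.14 in JU1088 and -0.58 ± 0.14 in N2. Under *pos-1* RNAi it was 1.30 ± 0.14 in N2, 1.00 ± 0.14 in JU1088, 0.82 ± 0.14 in CB4856, 0.51 ± 0.14 in EG4348 and 0.17 ± 0.14 in QX1211. The value of QX1211 under *pos-1* RNAi was below 2 standard errors.

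Nearly all reads of *F44E7.5* were assigned to 1 transcript. F44E7.5a.2 held a median of 98.6% of the reads of the gene and F44E7.5b.1 a median of 1.44%. F44E7.5a.2 is absent from the annotation used here and was matched to the gene by its sequence name. The transcripts with 5 exons described above are F44E7.5a.1 and F44E7.5b.1. F44E7.5a.1 had reads in 3 of 45 libraries and reached 39.3% in 1 of them, where F44E7.5a.2 was at its lowest share of 58.8%. The sums over transcripts were used throughout.

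**Figure D2:**
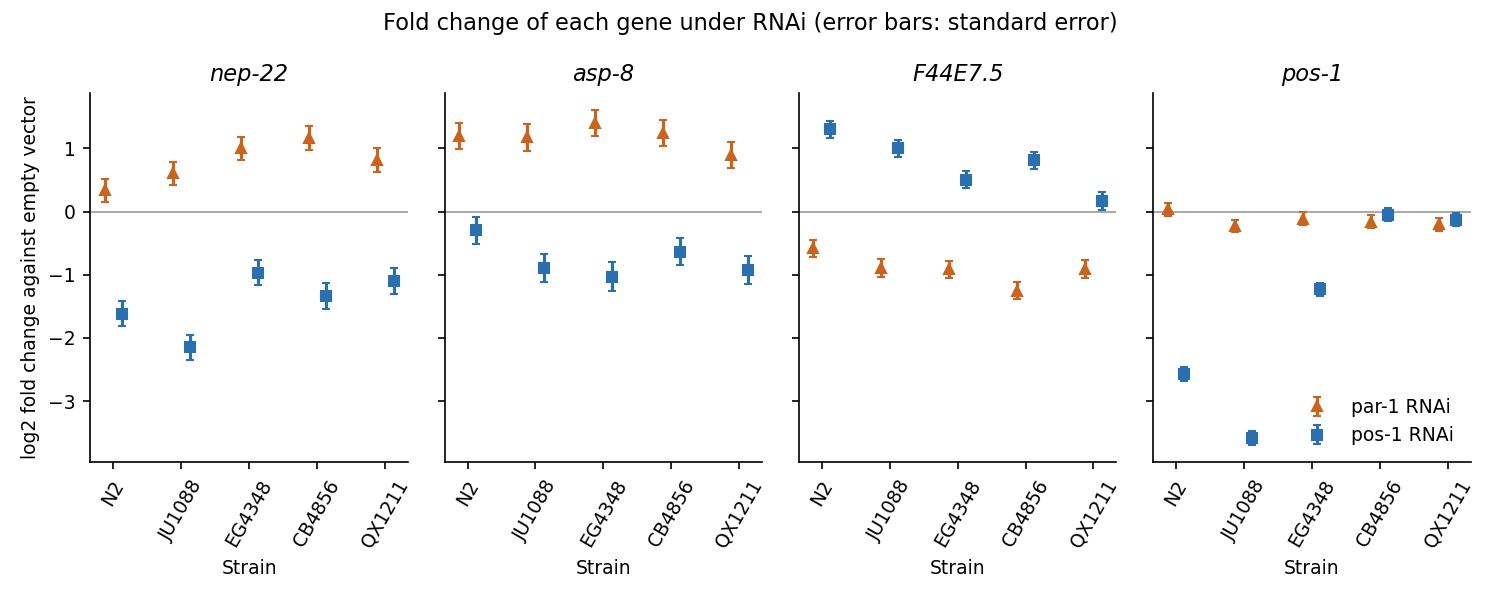
Log2 fold change against empty vector of the same strain for *nep-22*, *asp-8*, *F44E7.5* and the RNAi target *pos-1*, with triangles for *par-1* RNAi, squares for *pos-1* RNAi and error bars of 1 standard error. Under *pos-1* RNAi, *pos-1* itself was between -3.59 and -0.05, and *nep-22* was between -2.15 and -0.97.

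The size of the *pos-1* RNAi values was set beside that of *pos-1* RNA in each strain. In JU1088 the log2 fold change was -3.59 for *pos-1*, -2.15 for *nep-22*, -0.89 for *asp-8* and 1.00 for *F44E7.5*. In N2 it was -2.57 for *pos-1*, -1.62 for *nep-22*, -0.30 for *asp-8* and 1.30 for *F44E7.5*. *pos-1* and *nep-22* thus had their most negative values in these 2 strains and *F44E7.5* its highest, whereas *asp-8* had its least negative value in N2. EG4348 had -1.23 for *pos-1*, -0.97 for *nep-22*, -1.03 for *asp-8* and 0.51 for *F44E7.5*. Its *nep-22* value was the least negative of any strain, including CB4856 and QX1211, where *pos-1* RNA did not pass the test.

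In the strains where *pos-1* RNA did not pass the test, the genes differed. CB4856 had -0.05 for *pos-1*, -1.33 for *nep-22*, -0.63 for *asp-8* and 0.82 for *F44E7.5*. QX1211 had -0.13 for *pos-1*, -1.10 for *nep-22*, -0.92 for *asp-8* and 0.17 for *F44E7.5*. Of these values, that of *F44E7.5* in QX1211 was below 2 standard errors, and the *asp-8* libraries of CB4856 overlapped the controls. Differences between strains in these values were not tested, and with 5 strains no relation across strains was computed.

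In whole-animal RNA, fewer cells of a type and less RNA per cell cannot be told apart. Markers of 10 tissues and stages were summed in each library. Under *par-1* RNAi, the summed germline markers (5 of 5 genes detected) lay below the controls in 4 of 5 strains, with log2 values from -0.30 to -0.11 and sums of 11255 to 15412 normalized counts against 14247 to 17373 on empty vector. The summed oocyte and eggshell markers (6 of 6) lay below in 4. The epidermal markers (2 of 4 at a mean of at least 10 normalized counts) lay above the controls in 4 strains, with log2 values from -1.01 to 2.95 and sums of 89.3 to 1761 normalized counts against 24.9 to 511. Intestinal markers (6 of 7 detected) overlapped the controls in 5 of 5 strains under *par-1* RNAi, with log2 values from 0.03 to 0.19. Yolk markers lay above the controls in 3 strains (0.13 to 0.30 on the log2 scale over the 5), neuronal markers in 2 (0.08 to 0.38), early embryo markers in 2 (0.01 to 0.91) and sperm markers in 1 (-0.51 to 2.61). Muscle and pharyngeal markers overlapped the controls in 5.

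Under *pos-1* RNAi, the summed intestinal markers lay below the controls in 2 of 5 strains, EG4348 (log2 value -0.17) and CB4856 (-0.11). Over the 5 strains the log2 values ran from -0.47 to -0.00, with sums of 2157 to 5139.6 normalized counts against 3197 to 4843. The lowest, -0.47, was that of JU1088, whose libraries overlapped the controls. Germline markers overlapped the controls in all 5, and so did sperm markers. Epidermal markers lay above the controls in 2 strains, pharyngeal markers lay below in 2 (-0.38 to 0.02 on the log2 scale), and body wall muscle (-0.46 to -0.01) and oocyte markers (-0.18 to 0.13) each lay below in 1. Neuronal, early embryo and yolk markers each lay above in 1. That strain was JU1088 for the muscle, oocyte, neuronal and early embryo markers and CB4856 for yolk. JU1088 was also 1 of the 2 strains for the epidermal and pharyngeal markers. In JU1088, 8.24% of all genes were called under *pos-1* RNAi, against 0.0646% (EG4348) to 0.215% (N2) in the other strains. Of all markers, *msp-58* and *med-1* were not listed in the table, 14 of 31 sperm markers reached a mean of 10 normalized counts, and 3 of 8 early embryo markers did. The part of these differences in the values of *nep-22*, *asp-8* and *F44E7.5* was not tested.

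On empty vector alone, the strains differed in *nep-22* and *F44E7.5* and no difference passed the test for *asp-8*. This comparison is between strains and not between treatments, so it was tested. It is not independent of the choice of genes, because its 15 control libraries are also 1 side of the contrasts used for that choice. Across the 5 strains, the edgeR quasi-likelihood adjusted *P* was 0.000193 for *nep-22*, 0.0180 for *F44E7.5* and 0.488 for *asp-8*. The log2 difference between the highest and the lowest strain was 1.03, 0.57 and 0.42, respectively. Of 16486 genes tested in the controls, 35.1% were called at an adjusted *P* under 0.1, so a strain difference was common among genes.

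Mean normalized counts of *nep-22* on empty vector were 297 ± 41.0 in JU1088, 296 ± 34.9 in N2, 187 ± 35.5 in EG4348, 154 ± 13.3 in QX1211 and 147 ± 28.8 in CB4856 (mean ± SD, n = 3). JU1088 and N2 thus had the higher levels, and all 6 of their libraries lay above the 9 libraries of the other strains. N2 exceeded EG4348 by 0.64 (SE 0.16), CB4856 by 1.02 (SE 0.17) and QX1211 by 0.96 (SE 0.17) on the log2 scale, with edgeR adjusted *P* = 0.0225, 0.000707 and 0.000921. JU1088 exceeded them by 0.64 (SE 0.17), 1.03 (SE 0.17) and 0.96 (SE 0.17), with edgeR adjusted *P* = 0.0351, 0.00102 and 0.00104. Calls at this threshold took 13.4%, 9.87% and 21.1% of all genes in the N2 pairs and 6.88%, 6.45% and 21.0% in the JU1088 pairs. N2 and JU1088 differed by -0.01 (SE 0.16). No pair among EG4348, CB4856 and QX1211 passed the test (edgeR adjusted *P* from 0.187 to 0.874), in pairs where 13.6%, 29.5% and 19.5% of genes were called. The largest of these differences, EG4348 minus CB4856, was 0.38 (SE 0.17), with an unadjusted *P* of 0.0374 in edgeR.

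The JU1088 to EG4348 difference lost its call when any of 4 libraries was left out, namely EG4348 control 1 (0.65, edgeR adjusted *P* = 0.117), EG4348 control 3 (0.52, 0.144), JU1088 control 2 (0.55, 0.155) or JU1088 control 3 (0.65, 0.105). Without CB4856 control 1 or EG4348 control 3, EG4348 also passed the test against CB4856, at 0.53 (edgeR adjusted *P* = 0.0848) and 0.51 (0.0978). Without EG4348 control 3 it passed against QX1211, at 0.45 (edgeR adjusted *P* = 0.0893).

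*F44E7.5* on empty vector followed another order of strains, with 956 ± 16.5 in EG4348, 887 ± 181 in CB4856, 807 ± 82.3 in JU1088, 733 ± 51.5 in QX1211 and 649 ± 77.9 in N2. EG4348 exceeded N2 by 0.57 (SE 0.13) and QX1211 by 0.40 (SE 0.13) on the log2 scale, with edgeR adjusted *P* = 0.00924 and 0.0333. CB4856 exceeded N2 by 0.45 (SE 0.13) with an edgeR adjusted *P* of 0.0418. In these pairs 13.4%, 29.5% and 9.87% of all genes were called. No pair of neighbouring strains in the order passed the test.

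The CB4856 to N2 difference lost its call when any of 4 libraries was left out. Its edgeR adjusted *P* was 0.117 without N2 control 2, 0.138 without N2 control 3, 0.179 without CB4856 control 2 and 0.166 without CB4856 control 3. The EG4348 to QX1211 difference lost its call without QX1211 control 2 (edgeR adjusted *P* = 0.110), and CB4856 passed against QX1211 without CB4856 control 1 (0.0142).

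*asp-8* on empty vector had means from 137 ± 38.6 in CB4856 to 184 ± 19.8 in JU1088, with EG4348, N2 and QX1211 between them. None of its 10 pairs of strains passed the test (edgeR adjusted *P* from 0.361 to 0.871), in pairs where 4.68% (N2 and JU1088) to 29.5% (EG4348 and QX1211) of all genes did. The largest difference, between JU1088 and CB4856, was 0.42 (SE 0.21) on the log2 scale, with an unadjusted *P* of 0.0658 in edgeR. Over the set, 30 such pairs were compared and 9 passed, 6 of them for *nep-22* and 3 for *F44E7.5*.

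**Figure D3:**
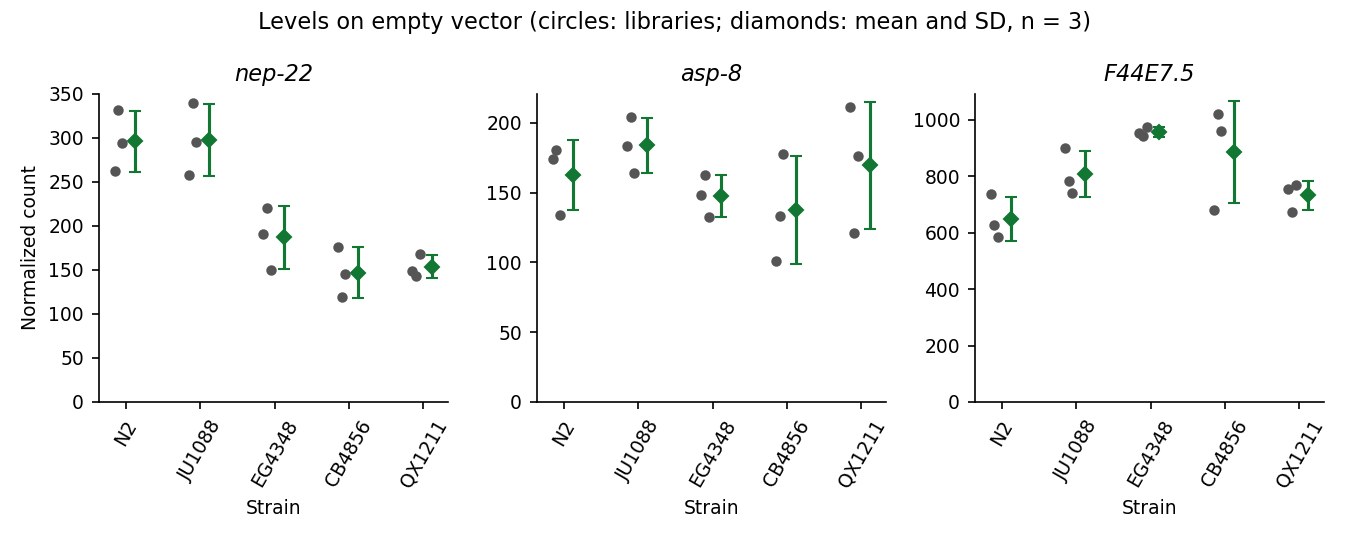
Normalized counts on empty vector by strain, with circles for the libraries and diamonds for the mean with bars of 1 SD (n = 3). N2 and JU1088 stand above the other strains for *nep-22*, EG4348 is highest for *F44E7.5*, and the strains overlap for *asp-8*.

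The genes whose levels were most like those of each member were ranked over 45 libraries, after the mean of the strain was subtracted from log2(normalized count + 1), among 8181 genes with a mean of at least 50. The points share libraries, size factors and treatment groups, so the correlations describe the data and are not tested. For *nep-22* these genes were *mlp-1*, a muscle LIM domain protein (*r* = 0.91), *odc-1*, the ornithine decarboxylase of polyamine synthesis (0.91), and *cat-4*, the GTP cyclohydrolase of biopterin synthesis (0.88). For *asp-8* they were *cat-4* (0.93), F22E12.1 (0.90) and F59B1.2 (0.89). For *F44E7.5* they were *zip-11*, a bZIP transcription factor (0.93), *zipt-7.1*, a zinc transporter (0.92), and F40F8.5 (0.92). Within the set, *nep-22* and *F44E7.5* were each other's most opposed gene (*r* = -0.94), and *asp-8* was ninth among the genes most like *nep-22* (*r* = 0.85).

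Of the 8 genes, 5 were called in opposite directions by the treatments, each in 1 strain under *pos-1* RNAi, but never both ways in the same strain. The *pos-1* RNAi call was in JU1088 for *mlp-1* and *odc-1*, in EG4348 for *cat-4*, and in N2 for *zip-11* and F40F8.5. Of all genes, 0.0861% were called higher under *par-1* RNAi and lower under *pos-1* RNAi within JU1088, the largest such share of a strain. That share is for both calls in the same strain, which none of the 5 genes had. The share of all genes called in opposite directions in different strains was not computed. The 8 genes were picked for likeness to genes chosen for opposition, so nothing is read from the 5. *mlp-1* rose under *par-1* RNAi in 1 strain and fell under *pos-1* RNAi in 1, and *zip-11* fell under *par-1* RNAi in 2 and rose under *pos-1* RNAi in 1. *cat-4* rose under *par-1* RNAi in 4 strains and fell under *pos-1* RNAi in 1, with log2 fold changes from 0.58 to 0.95 and from -0.60 to -0.34. *odc-1* rose under *par-1* RNAi in 2 strains and fell under *pos-1* RNAi in 1. *zipt-7.1* was called in no strain under either treatment, with log2 fold changes from -0.42 to -0.13 under *par-1* RNAi and from 0.12 to 0.42 under *pos-1* RNAi. F59B1.2 rose under *par-1* RNAi in 5 strains and was not called under *pos-1* RNAi, and F40F8.5 fell under *par-1* RNAi in 4 and rose under *pos-1* RNAi in 1. By the rule for calls given above, 12.0% of genes were called higher and 1.40% lower in at least 1 strain under *par-1* RNAi. Under *pos-1* RNAi, 5.35% were called higher and 3.02% lower in at least 1 strain.

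Other genes with the same order of libraries in at least 3 strains are named here. The set was chosen for opposition in these same libraries, so nothing is read from how few they are. *cat-4* had the order of *nep-22* in 4 strains and F56H9.2 and *clec-265*, a C-type lectin gene, had it in 3. *zipt-7.1* had the order of *F44E7.5* in 4 strains and F40F8.5 had it in 3. Apart from *nep-22* and *F44E7.5*, no gene of the table had either order in 5 strains.

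Among replicates of the same group, the relation between *asp-8* and *F44E7.5* had the other sign than across treatments. When the mean of the group of 3 was subtracted in place of the mean of the strain, *asp-8* and *F44E7.5* varied together (*r* = 0.69, Spearman's rho = 0.63, 45 libraries), whereas across treatments their correlation was -0.84. That correlation was above 0 within each of the 5 strains (9 libraries each, 0.45 to 0.83) and within each treatment (15 libraries each). It was 0.63 on empty vector, 0.76 under *par-1* RNAi and, with *pos-1* RNAi, 0.70. *F44E7.5* was eighth among the 8180 other genes in its likeness to *asp-8* by this measure.

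*nep-22* and *F44E7.5* were opposed among replicates too, with *r* = -0.47 (rho = -0.49) over 45 libraries, between -0.81 and -0.19 in the 5 strains. It was -0.60 on empty vector, -0.71 under *par-1* RNAi and, with *pos-1* RNAi, -0.39. *nep-22* and *asp-8* had *r* = -0.14 (rho = -0.10), with 2 strains above 0 and 3 below. By treatment, that pair had 0.09 on empty vector, -0.75 under *par-1* RNAi and, with *pos-1* RNAi, -0.11 (15 libraries each), so the pooled value covers unlike ones. All 45 points share the same size factors and processing, and each deviation is taken from a mean of 3, so these correlations have no test. They were 0.71 for *asp-8* with *F44E7.5* and -0.50 for *nep-22* with *F44E7.5* when the 3 libraries quantified with the same fragment length were left out. Without the 2 libraries farthest from the median of the first gene they were 0.68 and -0.44.

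**Figure D4:**
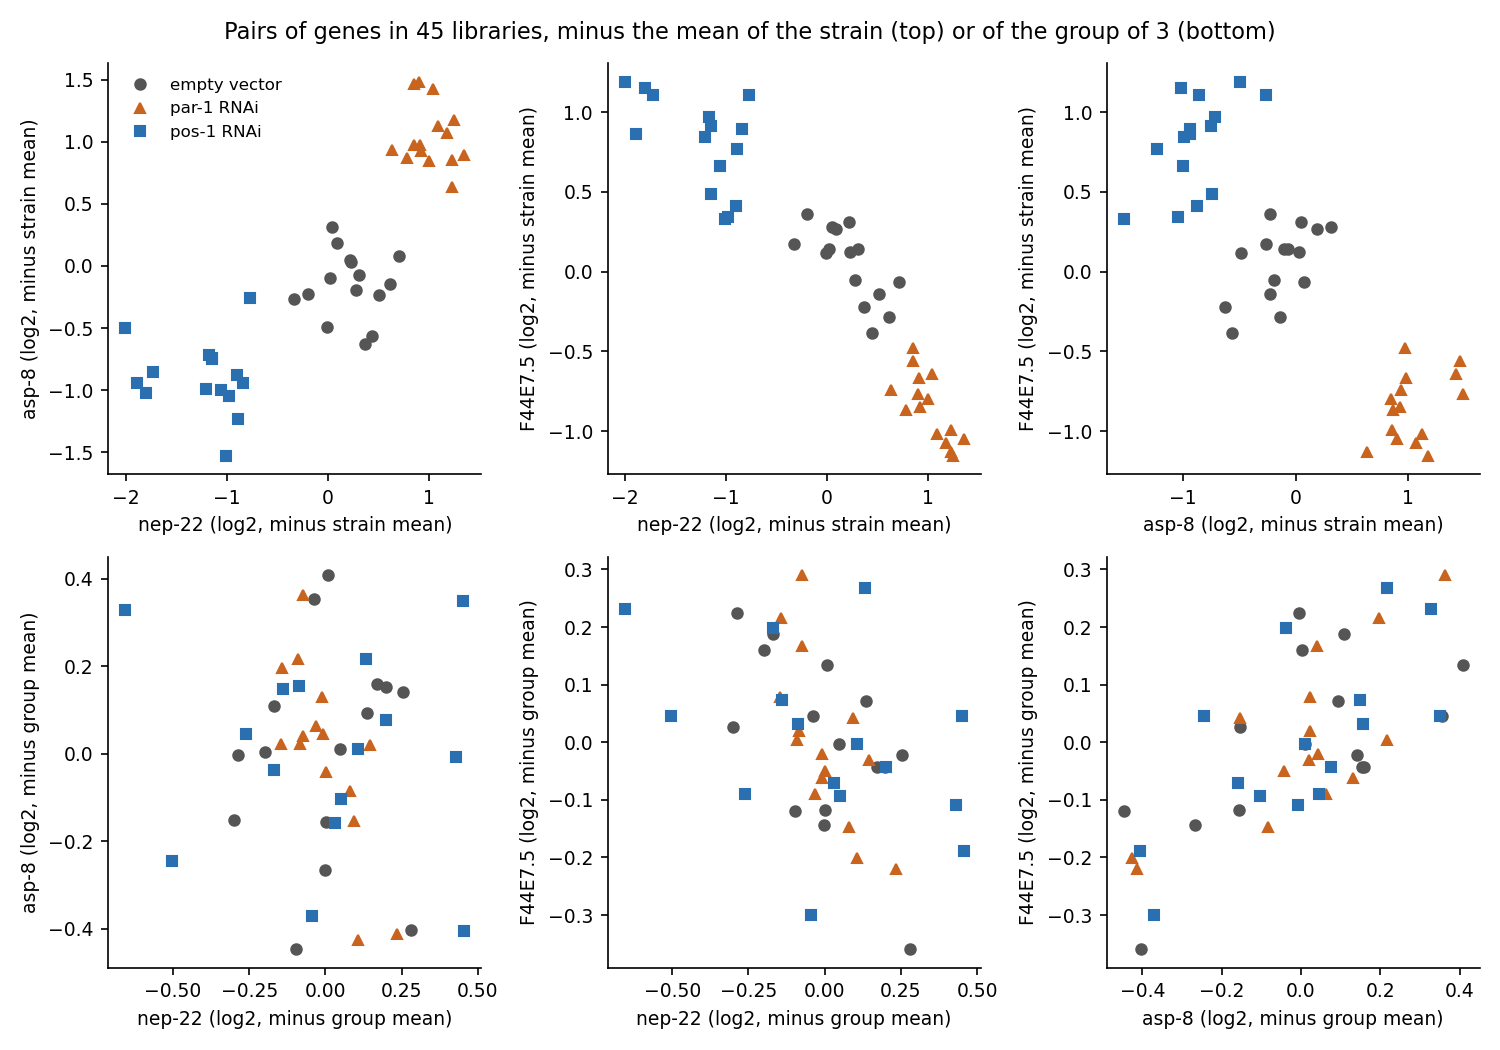
Each pair of the 3 genes in 45 libraries on the log2(normalized count + 1) scale, minus the mean of the strain (top) or of the group of 3 replicates (bottom), with circles for empty vector, triangles for *par-1* RNAi and squares for *pos-1* RNAi. *asp-8* and *F44E7.5* slope downward in the top row (*r* = -0.84) and upward in the bottom row (*r* = 0.69).

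The other neprilysin genes are described beside *nep-22*. Because *nep-22* was chosen for opposition, a difference from them in that respect was fixed in advance. Of 23 genes with a nep symbol, 22 others were tested. The lowest were *nep-5*, *nep-13*, *nep-6* and *nep-3*, with means of 0.37, 0.62, 0.80 and 0.85 normalized counts over all libraries. At such levels the lack of a call says little. Under *par-1* RNAi, 1 of them was called higher and 2 lower in at least 1 strain, and 19 were not called. Under *pos-1* RNAi, 0 were called higher, 5 were called lower and 17 were not called. Of all genes, 12.0% were called higher and 1.40% lower in at least 1 strain under *par-1* RNAi. The shares under *pos-1* RNAi were 5.35% and 3.02%. The median log2 fold change of the 22 genes in a strain was between -0.07 and 0.21 under *par-1* RNAi and between -0.24 and 0 under *pos-1* RNAi, while the median of all genes was between -0.00 and 0.03.

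Among the neprilysin genes called in most strains, the calls under *pos-1* RNAi were downward. *nep-8* fell under *par-1* RNAi in 4 strains and under *pos-1* RNAi in 4, and *nep-10* fell in 2 strains under each. Their means over all libraries were low, at 17.1 and 6.38 normalized counts. Of all genes, 0.151% were called lower by *par-1* RNAi in at least 4 strains, and by *pos-1* RNAi 0.0431% were. *nep-17* fell under *pos-1* RNAi in N2, JU1088 and CB4856, with log2 fold changes of -0.69, -1.06 and -0.70 (edgeR adjusted *P* = 0.0251, 3.47e-05 and 0.0321). In CB4856, 0.0969% of all genes were called lower. *nep-16* rose under *par-1* RNAi in 2 strains, JU1088 and QX1211, and had a mean of 3.37 normalized counts over all libraries, both treatments included. No other neprilysin gene was called in opposite directions under the 2 treatments. Such calls were rare among all genes too. Within a strain, at most 0.0861% of genes were called higher under *par-1* RNAi and lower under *pos-1* RNAi. Nothing is read from the absence.

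Of 17 genes with an asp symbol, 13 besides *asp-8* were tested. Under *par-1* RNAi, 6 of them were called higher in at least 1 strain, 0 lower and 7 were not called. The shares over all genes were 12.0% higher and 1.40% lower. Under *pos-1* RNAi, 3 were called higher, 1 lower and 9 were not called, beside 5.35% and 3.02% of all genes. *asp-16*, *asp-9* and *asp-7* had means of only 0.28, 0.85 and 0.94 normalized counts over all libraries. *asp-7* was among the 6 called higher under *par-1* RNAi. The median of the 13 genes in a strain was between 0.26 and 0.80 under *par-1* RNAi, where the median of all genes was between 0 and 0.03. Under *pos-1* RNAi it was between -0.13 and 0.06.

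*asp-14* rose under both treatments, in 5 strains under *par-1* RNAi (log2 fold change 1.82 to 2.62) and in 4 under *pos-1* RNAi (1.10 to 1.78 in those 4). Genes called higher in 5 strains under *par-1* RNAi were 0.172% of all, and *asp-14* was the 1 gene (0.00538%) called higher in at least 4 under *pos-1* RNAi. *asp-1*, a cathepsin-type protease of the intestine, rose under *par-1* RNAi in 2 strains. *asp-13* fell in 1 strain and *asp-17* rose in 1 under *pos-1* RNAi. No other aspartyl protease gene was called in opposite directions under the 2 treatments. As with the neprilysins, nothing is read from the absence.

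The genes next to the set on the chromosomes were, with 1 exception, called in no strain under either treatment. In at least 1 strain, 12.0% of all genes were called higher and 1.40% lower under *par-1* RNAi. Under *pos-1* RNAi the shares were 5.35% and 3.02%. With so few neighbours, most of them at very low counts, nothing is read from this count. *snf-12*, a transporter-family gene 598 bases from *nep-22*, had log2 fold changes from -0.25 to 0.61 under *par-1* RNAi and from -0.51 to 0.38 under *pos-1* RNAi, at group means of 10.9 to 26.9 normalized counts. F47E1.20, on its other side, had group means of at most 1.58. F44E7.4, 1863 bases from *F44E7.5* and far more abundant, had log2 fold changes (group means 2605 to 3712 normalized counts) from -0.32 to -0.07 under *par-1* RNAi and from -0.11 to 0.05 under *pos-1* RNAi. *fbxa-183*, an F-box gene 394 bases from *F44E7.5*, and *srh-87*, a chemoreceptor gene 78846 bases from *asp-8*, had group means of at most 1.60 normalized counts. *asp-7*, 353 bases from *asp-8*, was called higher under *par-1* RNAi in 1 strain, with a mean of 0.94 normalized counts over all libraries.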

How the data were processed

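Strand-specific, single-end RNA-seq libraries were made from 45 samples of whole day 1 adults. According to the methods and the submitters' processing notes, reads were trimmed with Trimmomatic (0.3.9) and quantified with Salmon (1.3.0 and 1.4.0 are both named) against strain-specific transcriptomes (WS276 carrying the variants of the strain). The authors deposited, for each library, an estimated count, a TPM value and an effective length for every transcript. They also deposited a signal table of normalized counts per gene, made with DESeq2 (1.32.0), in which reads are divided by library size factors and corrected for transcript length. Levels are from that table and TPM from the transcript files.

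For the models, estimated counts were summed by gene and rounded to whole numbers. Of 65173 transcripts, 58519 were matched to Ensembl WBcel235 by name, 6633 by sequence name and 21 not at all. edgeR (4.0.16, R 4.3.3) quasi-likelihood models used TMM factors, transcript length offsets and genes with at least 10 reads summed, with 1 mean for each of the 15 groups, and *P* values were adjusted by Benjamini-Hochberg over all genes. Treatment calls were made at an adjusted *P* under 0.1 where the change also exceeded 1.5-fold, and strain calls at an adjusted *P* under 0.1 in the 15 controls. The scripts were tested on simulated data.

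The 3 genes, the families, the markers and the tests were chosen with earlier results of these data known. Other genes named are the RNAi targets, the 3 genes most like each member, the nearest tested protein-coding gene on either side, and the 3 genes of each family called in most strains under each treatment. Alternatives were RLE factors, no length offset, other low-count filters, DESeq2 (1.42.0), a replicate block, a model of 1 strain, and each library left out in turn. The *P* values measure the spread between replicates of 2 plates each. The median dispersion index of replicate pairs was 7.28 and the lowest was 1.65, so no library was a copy of another in its group. Libraries of different groups were not compared in this way. QX1211 control 1, CB4856 *par-1* RNAi 3 and JU1088 *pos-1* RNAi 2 share a fragment length, and values were also computed without them. No protein or promoter sequence was used here.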

Additional observations from a re-analysis of the deposited data

How the results depend on the processing

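All 450 treatment values of the 3 genes under the alternatives, leave-one-out included, kept the sign of the reported value. Outside leave-one-out the largest shift was 0.24 on the log2 scale, for *asp-8* in QX1211 when the 3 libraries with a shared fragment length were left out (chosen after seeing the data), and with single libraries left out it was 0.28. Those leave-one-out fits held the dispersion trend of all libraries. Across strains on empty vector, the adjusted *P* in edgeR or DESeq2 was between 6.38e-11 and 0.000686 for *nep-22*, 0.00324 and 0.0334 for *F44E7.5*, and 0.462 and 0.596 for *asp-8*. With each control left out in turn, the edgeR ranges were 0.000120 to 0.000763, 0.00106 to 0.0481 and 0.215 to 0.693, and 8 to 11 of the 30 pairs of strains passed. The calls of other family members over strains numbered 16 to 20 for neprilysins (19 reported) and 16 to 21 for aspartyl proteases (18 reported). Replicate numbers did not pair the samples as a whole, since 21 of 45 same-numbered pairs had deviations correlated above 0.1 (-0.31 to 0.54). In 2 of 15 comparisons each of the 3 pairs exceeded 0.1, namely CB4856 controls with *pos-1* RNAi (0.20 to 0.42) and QX1211 *par-1* RNAi with *pos-1* RNAi (0.12 to 0.24). With a replicate block within each strain, the log2 fold changes under *pos-1* RNAi in CB4856 were -1.38 for *nep-22*, -0.61 for *asp-8* and 0.83 for *F44E7.5*. With the replicate block, the edgeR adjusted *P* across strains was 0.000671 for *nep-22*, 0.552 for *asp-8* and 0.0334 for *F44E7.5*, and the families had 19 and 17 calls. DESeq2 was not run for the pairs of strains, and the families were not refitted with libraries left out. At the lowest depth, 27 reads of *nep-22* limit the precision of single libraries.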

Other observations

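The genes that varied most like each member among replicates of a group were looked up after the correlations within the set had been seen. For *asp-8* these were *cyp-35A2*, a cytochrome P450 gene (*r* = 0.80), *cpr-9*, a cathepsin B type protease gene (0.79), and *cyp-35C1*, another cytochrome P450 gene (0.77), over 45 libraries. For *F44E7.5* they were Y39B6A.1 (0.81), T12D8.5 (0.80) and *cyp-35A2* (0.78), so *cyp-35A2* was near the top for both genes. For *nep-22* they were F07A11.4 (0.80), *odc-1* (0.80) and *nhr-31*, a nuclear hormone receptor gene (0.76). *odc-1* was thus among the genes most like *nep-22* both across treatments and among replicates. These values are descriptions over libraries that share processing and size factors.

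The assignment of *F44E7.5* reads to F44E7.5a.1 was uneven among libraries. It had no reads in 42 of 45, and its highest share was 39.3%, in QX1211 *par-1* RNAi replicate 2. The sum over transcripts in that library was the lowest of its group, at 357 normalized counts against 390.0 and 445 in the other replicates.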
